A study of Mus musculus with 12 samples.

Results

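The complement components and regulators described here were 8 genes chosen by name: C3, C4b, Cfb, Cfd, Serping1, Cd55, Cd59a and Masp1. Every probeset of the array that the annotation assigned to exactly 1 of these symbols was taken. This gave 13 of the 45037 probesets tested, from 6 of the 8 genes: 5 of Masp1, 3 of Cd55, 2 of Cd59a and 1 each of C4b, Cfb and Serping1. For C3, on which all activation routes of complement converge, and Cfd, the protease that activates factor B, the annotation used here named no probeset. These 2 genes were not analysed here, and 15588 of the 45037 probesets carried no gene symbol.

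RNA came from mouse mesenchymal stem/stromal cells (MSCs), immortalized multipotent cells from bone marrow, of the FVB/NJ background by the labels, while the study's methods name C57BL/6J for its mice. All of them, controls included, carried floxed alleles of Mapk14, the gene of the kinase p38α, and a tamoxifen-inducible Cre driven by the ubiquitin C promoter. The 4 groups were untreated wild-type MSCs (WT, labelled CTRO; 4 arrays), WT MSCs given TGF-β (3 arrays), MSCs deleted for p38α (p38α∆, labelled KO; 2 arrays) and p38α∆ MSCs given TGF-β (3 arrays). Every culture was starved in 0.5% serum, and TGF-β was given at 5 ng/ml for 20 h. The p38α∆ cells had been made with 4-hydroxytamoxifen and the WT cells had received vehicle, so exposure to the drug and loss of the gene cannot be told apart. An array's label gives its group and a number, and arrays 1, 3, 4 and 4b were of WT MSCs, 1, 3 and 4 of TGF-β-treated WT MSCs, 1 and 3 of p38α∆ MSCs, and 1, 2 and 4 of TGF-β-treated p38α∆ MSCs. The sources used here do not say that arrays of a group were separate cultures, so the p-values measure only the spread between these arrays, and their small number limits the precision.

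Complement is a cascade of plasma proteases that marks microbes and damaged cells. The classical and lectin routes cleave C4 and C2, the alternative route uses factor B and factor D, and all of them cleave C3 and can end in a pore in the target membrane. Host cells hold the cascade in check with soluble inhibitors such as the C1 inhibitor and with membrane proteins such as CD55 and CD59. Most plasma complement comes from the liver, and stromal cells are also known to make components of it. The comparisons asked how the RNA of these genes differed with TGF-β in each genotype and with loss of p38α in each condition.

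Values are log2 intensities normalized across arrays by the authors, 1 per probeset. They ranged from 2.28 to 12.9 over the table, with array medians of 4.22 to 4.27. The first principal component held 50.2% of the variance and set the 4 arrays numbered 1 (34.2 to 53.8) apart from the other 8 (−41.8 to −4.14). The limma fit allowed for a correlation between arrays sharing a number, because the study adjusted for a scanning batch that the labels do not give. A probeset passed, and is said to have risen or fallen, at a two-sided p under 0.05 after Benjamini-Hochberg adjustment over all 45037 probesets. The 6 probesets of Mapk14 did not pass in either comparison of genotypes (adjusted p at least 0.601 in limma), and the sources do not place them inside or outside the deleted exon, so they do not check the labels. The means of 8 MSC marker genes lay between 6.50 and 6.75 on the 12 arrays, although Thy1 among them read only 3.14 to 3.55. The Eng probesets, also among them, read 4.32 to 4.98 and 4.21 to 4.66, near the array medians. The means of leukocyte (11 genes, 3.60 to 3.83), endothelial (6 genes, 3.45 to 3.76), adipocyte (6 genes, 3.57 to 3.90) and hepatocyte markers (6 genes, 3.97 to 4.44) were near or under the array medians. Ptprc, which encodes the leukocyte antigen CD45, read 2.67 to 2.97. Some other leukocyte markers read near or above the array medians: Cd14 (4.36 to 4.99), Csf1r (4.18 to 5.14), Cd68 (4.25 to 4.69) and Fcer1g (4.23 to 4.76).

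Of the 6 genes measured, Masp1 alone had a probeset that passed in any comparison, and its RNA fell with TGF-β. It encodes proteases of the lectin route that circulate with mannose-binding lectin and the ficolins, and alternative splicing gives the protease MASP-1, the protease MASP-3, which activates pro-factor D, and a short inhibitor without protease activity. In WT MSCs 3 of the 13 probesets fell after TGF-β, all of them Masp1 and by 1.41-fold to 1.55-fold, where 3.06% of all probesets fell and 2.94% rose. In p38α∆ MSCs 1 of the 13 fell, again Masp1 and by 1.31-fold, where 2.78% of all probesets fell and 2.43% rose. The target that each probeset was designed on is named only by an accession, and which of the spliced forms it reads was not determined. Probesets 1438602_PM_s_at and 1438603_PM_x_at were designed on the same accession, so they are not independent measurements. The suffixes s and x mark probesets whose probes can match more than 1 transcript, and whether these include transcripts of other genes was not determined.

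Masp1 probeset 1425985_PM_s_at gave log2 values of 8.92, 8.94, 8.86 and 9.08 in WT MSCs (arrays 1, 3, 4 and 4b) and of 8.50, 8.28 and 8.53 in TGF-β-treated WT MSCs (arrays 1, 3 and 4). Each of the 3 treated arrays lay below each of the 4 untreated ones, as they did for 6.06% of all probesets. The log2 fold change was −0.50 (SE 0.07, 95% interval −0.65 to −0.34, adjusted p = 0.00136 in limma). Between arrays of the same number it was −0.41, −0.65 and −0.44 (numbers 1, 3 and 4, with 4 and 4b averaged), so the fall appeared within each number. In bulk RNA such as this, fewer cells that express a gene and less of its RNA per cell cannot be told apart.

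Probeset 1438602_PM_s_at read 8.14, 8.20, 8.07 and 8.35 in WT MSCs and 7.76, 7.52 and 7.78 after TGF-β. These groups did not overlap either, and the log2 fold change was −0.49 (SE 0.09, 95% interval −0.70 to −0.29, adjusted p = 0.00848 in limma). Without TGF-β-treated WT array 3, its lowest, the adjusted p was 0.0544. Probeset 1438603_PM_x_at read 5.89, 5.41, 5.37 and 5.52 in WT MSCs and 5.06, 4.85 and 4.86 after TGF-β. It showed the steepest fall of the 5, a log2 fold change of −0.64 (SE 0.09, 95% interval −0.83 to −0.45, adjusted p = 0.00104 in limma), with no overlap of the groups. Array 1 was its highest array in each of the 4 groups, as it was for 19.9% of all probesets, and the within-number differences were −0.83, −0.56 and −0.58.

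The remaining Masp1 probesets lay low on the scale. Probeset 1419677_PM_at read 3.42 to 3.82 over the 12 arrays and 1455346_PM_at 2.81 to 2.98. Their TGF-β responses in WT MSCs were −0.06 (adjusted p = 0.825 in limma) and −0.03 (adjusted p = 0.879), and treated and untreated arrays overlapped in both. The probesets of this gene thus did not move together: over the 12 arrays the Pearson correlation among the 3 that fell was 0.815 to 0.928, while that of 1425985_PM_s_at with 1455346_PM_at was −0.14 and with 1419677_PM_at −0.06. These arrays share groups and numbers, so the correlations are descriptions.

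**Figure D1:**
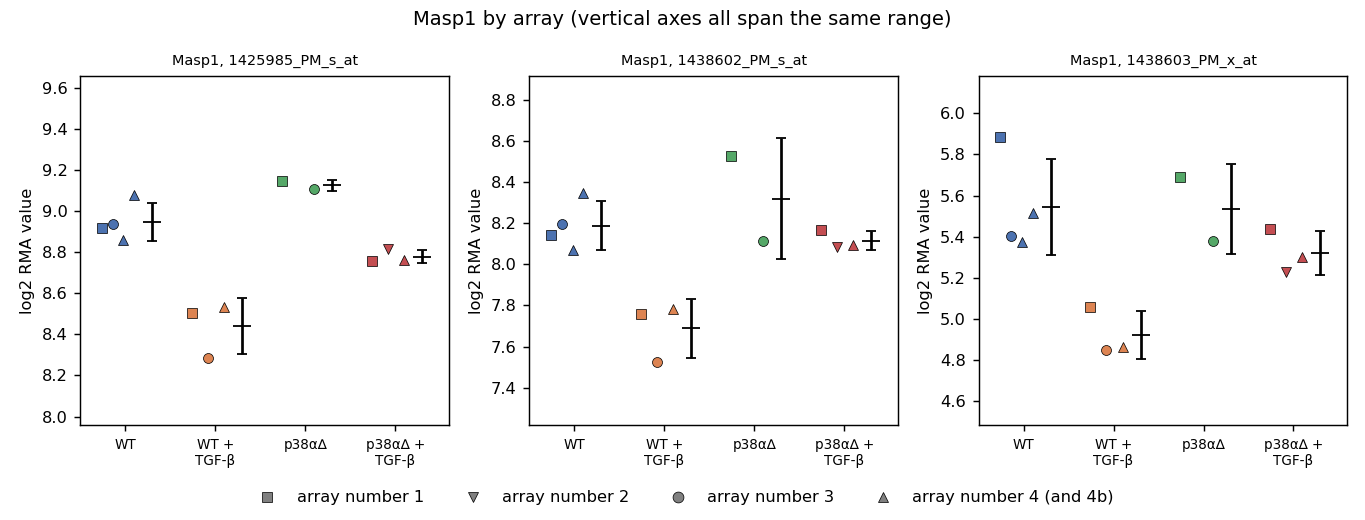
Log2 values of the 3 Masp1 probesets that fell with TGF-β in WT MSCs, 1 point per array, colored by group and shaped by array number. The bars are the group mean ± SD (n = 4, 3, 2 and 3), and the vertical axes start above 0 and all cover the same span. All TGF-β-treated WT arrays lie below all untreated WT arrays in each panel, and below all TGF-β-treated p38α∆ arrays.

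In p38α∆ MSCs, probeset 1425985_PM_s_at read 9.14 and 9.11 untreated and 8.76, 8.81 and 8.76 after TGF-β. All treated arrays lay below both untreated ones, as they did for 10.7% of all probesets. The log2 fold change of −0.39 passed (SE 0.09, 95% interval −0.59 to −0.19, adjusted p = 0.0320 in limma). The call rested on 2 untreated arrays and was lost without either of them, without any 1 of the 3 treated arrays and without TGF-β-treated WT array 4, with adjusted p-values of 0.0504 to 0.165, although the change stayed between −0.41 and −0.38. It was also lost without the arrays numbered 1 (−0.34, adjusted p = 0.225), with no block for the array number (−0.35, adjusted p = 0.123), with that block as a fixed term (−0.42, adjusted p = 0.0716), after quantile normalization (−0.37, adjusted p = 0.0970) and with an intensity-trend prior (adjusted p = 0.0581). The groups share a single number, and on its arrays the difference was −0.39.

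Probeset 1438602_PM_s_at read 8.53 and 8.11 in untreated p38α∆ MSCs and 8.17, 8.08 and 8.09 after TGF-β. Here untreated array 3 lay below treated array 1, and the log2 fold change of −0.25 did not pass (95% interval −0.51 to 0.02, adjusted p = 0.343 in limma). Probeset 1438603_PM_x_at read 5.69 and 5.38 untreated and 5.44, 5.23 and 5.30 treated, also with overlap. Its log2 fold change was −0.20 (95% interval −0.44 to 0.05, adjusted p = 0.439). The low probesets 1419677_PM_at (0.15, adjusted p = 0.572) and 1455346_PM_at (0.06, adjusted p = 0.763) lay higher after TGF-β with no overlap, and neither passed. In this comparison 9.35% of all probesets were all higher and 10.7% all lower.

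Passing in WT and not in p38α∆ MSCs does not show that the responses differed, so the difference of the responses was tested. It was 0.11 (95% interval −0.15 to 0.37, adjusted p = 0.948 in limma) for 1425985_PM_s_at and 0.24 (95% interval −0.10 to 0.58, adjusted p = 0.945) for 1438602_PM_s_at, where a positive value means a smaller fall in p38α∆ MSCs. For 1438603_PM_x_at it was 0.44 (95% interval 0.12 to 0.76, unadjusted p = 0.0109, adjusted p = 0.945). None of the 13 probesets passed this test, against 0.00666% of all probesets, and 1 had an unadjusted p under 0.05, as did 4.94% of all probesets. For the first 2 the interval held 0, as well as a fall in p38α∆ MSCs smaller by 0.37 or 0.58 on the log2 scale.

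Under TGF-β, the same 3 Masp1 probesets were higher in p38α∆ than in WT MSCs by log2 values of 0.31 (95% interval 0.13 to 0.49), 0.40 (0.17 to 0.63) and 0.38 (0.17 to 0.60), in the order 1425985_PM_s_at, 1438602_PM_s_at and 1438603_PM_x_at. In each of them all 3 p38α∆ arrays lay above all 3 WT arrays, as did 4.41% of all probesets, while 3.36% were all lower and 0 of the 13. Their unadjusted p-values in limma were 0.00248, 0.00300 and 0.00239, and after adjustment over all probesets none passed (0.233, 0.257 and 0.229). On the arrays numbered 1 and 4 the differences were 0.25 and 0.23, 0.41 and 0.31, and 0.38 and 0.44, so both numbers gave the same direction. The TGF-β-treated WT arrays enter both this comparison and the WT response, so the results are not independent of each other.

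Without TGF-β, 1425985_PM_s_at was above WT in both p38α∆ arrays, by 0.20 on the log2 scale (95% interval 0.02 to 0.39, unadjusted p = 0.0344, adjusted p = 0.987 in limma). The corresponding values of 1438602_PM_s_at and 1438603_PM_x_at were 0.15 and −0.06, with overlapping groups. Differences within numbers 1 and 3 were 0.23 and 0.17, 0.39 and −0.08, and −0.20 and −0.03, so 1425985_PM_s_at was higher and 1438603_PM_x_at lower within both numbers, while 1438602_PM_s_at changed sign. Probeset 1455346_PM_at lay below WT in both p38α∆ arrays (−0.08), where 3.33% of all probesets were all lower and 3.69% all higher.

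The genes whose probesets followed 1425985_PM_s_at most closely over the 12 arrays, by Pearson correlation, were Ppt1, a lysosomal thioesterase (r = 0.968), Ccnd1, the G1 cyclin D1 (r = 0.960), and Ttc28 (r = 0.957). With the means of the array numbers removed, these correlations were 0.971, 0.964 and 0.961. All 3 fell with TGF-β in WT MSCs, by log2 values of 0.35, 0.52 and 0.52 (adjusted p = 0.00483, 0.00137 and 0.00102 in limma). In p38α∆ MSCs they fell by 0.30, 0.38 and 0.36 (adjusted p = 0.0476, 0.0442 and 0.0472). The 3 genes were picked by their correlation over these same arrays, from all probesets with a single gene symbol. Their falls therefore follow from the choice and are not separate results.

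Of the proteins cut by the lectin and classical proteases, C4 is represented here by C4b. Its probeset 1418021_PM_at read 4.45, 4.71, 4.58 and 4.56 in WT MSCs and 4.54, 4.43 and 4.48 after TGF-β. In p38α∆ MSCs it read 4.55 and 4.49 untreated and 4.78, 4.57 and 4.37 treated. All groups overlapped, and no comparison passed, with log2 fold changes of −0.10 and 0.08 for the responses and −0.09 and 0.10 for the genotypes. C4a is a near-identical copy of C4b, so the probeset may read both.

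Cfb encodes factor B, the protease part of the alternative C3 convertase. Its probeset 1417314_PM_at read 4.65, 4.32, 4.34 and 4.26 in WT MSCs and 4.71, 4.18 and 4.47 after TGF-β. In p38α∆ MSCs it read 4.53 and 4.10 untreated and 4.49, 4.31 and 4.38 treated. The array numbered 1 was the highest of each group, by 0.14 to 0.43 over the mean of the others, which was more than any difference between groups (−0.10 to 0.06). In the RefSeq annotation of GRCm38.p6 Cfb lies close to C4b, with 5 protein-coding genes between them, and next to C2, whose product is cut with C4. The C2 probeset read 3.34 to 3.94 and was not called in any comparison.

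Serping1 encodes the C1 inhibitor, a serpin that blocks the proteases of the classical and lectin routes, MASP-1 among them. Its probeset 1416625_PM_at read 3.92, 3.94, 4.05 and 3.92 in WT MSCs and 4.14, 3.98 and 4.06 after TGF-β. In p38α∆ MSCs it read 4.14 and 3.77 untreated and 4.46, 3.98 and 4.02 treated. Its responses were 0.09 in WT and 0.22 in p38α∆ MSCs (95% interval −0.06 to 0.50), and neither passed. The highest value was that of TGF-β-treated p38α∆ array 1, and array 1 stood above the other arrays of both p38α∆ groups by 0.36 and 0.46.

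Cd59a encodes a membrane protein that stops the pore from forming. In WT MSCs probeset 1418710_PM_at read 8.19, 8.52, 8.28 and 8.35, and after TGF-β 8.03, 8.36 and 7.84. Probeset 1429830_PM_a_at read 6.96, 6.76, 6.50 and 6.53, and after TGF-β 6.67, 6.45 and 6.26. In both, the groups overlapped while the treated array was the lower one within each of numbers 1, 3 and 4 (−0.17, −0.16 and −0.48 for the first, −0.29, −0.31 and −0.26 for the second).

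The log2 fold changes of Cd59a in WT MSCs were −0.27 (SE 0.10, 95% interval −0.50 to −0.05, unadjusted p = 0.0192 in limma) and −0.26 (SE 0.09, 95% interval −0.46 to −0.06, unadjusted p = 0.0158). Neither passed after adjustment over all probesets (0.169 and 0.150). In p38α∆ MSCs the first probeset read 8.30 and 8.31 untreated and 7.96, 8.32 and 8.18 treated, and the second 6.78 and 6.62 untreated and 6.54, 6.56 and 6.55 treated. The responses there were −0.11 and −0.09, and the differences from WT were −0.07 and −0.07 untreated and 0.09 and 0.09 under TGF-β. No comparison of Cd59a passed.

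Cd55 encodes decay-accelerating factor, a membrane protein that takes C3 convertases apart. Its 3 probesets read 2.81 to 3.18 (1418762_PM_at), 2.59 to 2.89 (1443906_PM_at) and 2.44 to 2.96 (1460242_PM_at) over all 12 arrays. All of these values were under the array medians, and no detection calls were among the values used here, so no presence or absence is stated. The largest difference between groups was −0.17 (1418762_PM_at, p38α∆ against WT under TGF-β, adjusted p = 0.810 in limma).

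**Figure D2:**
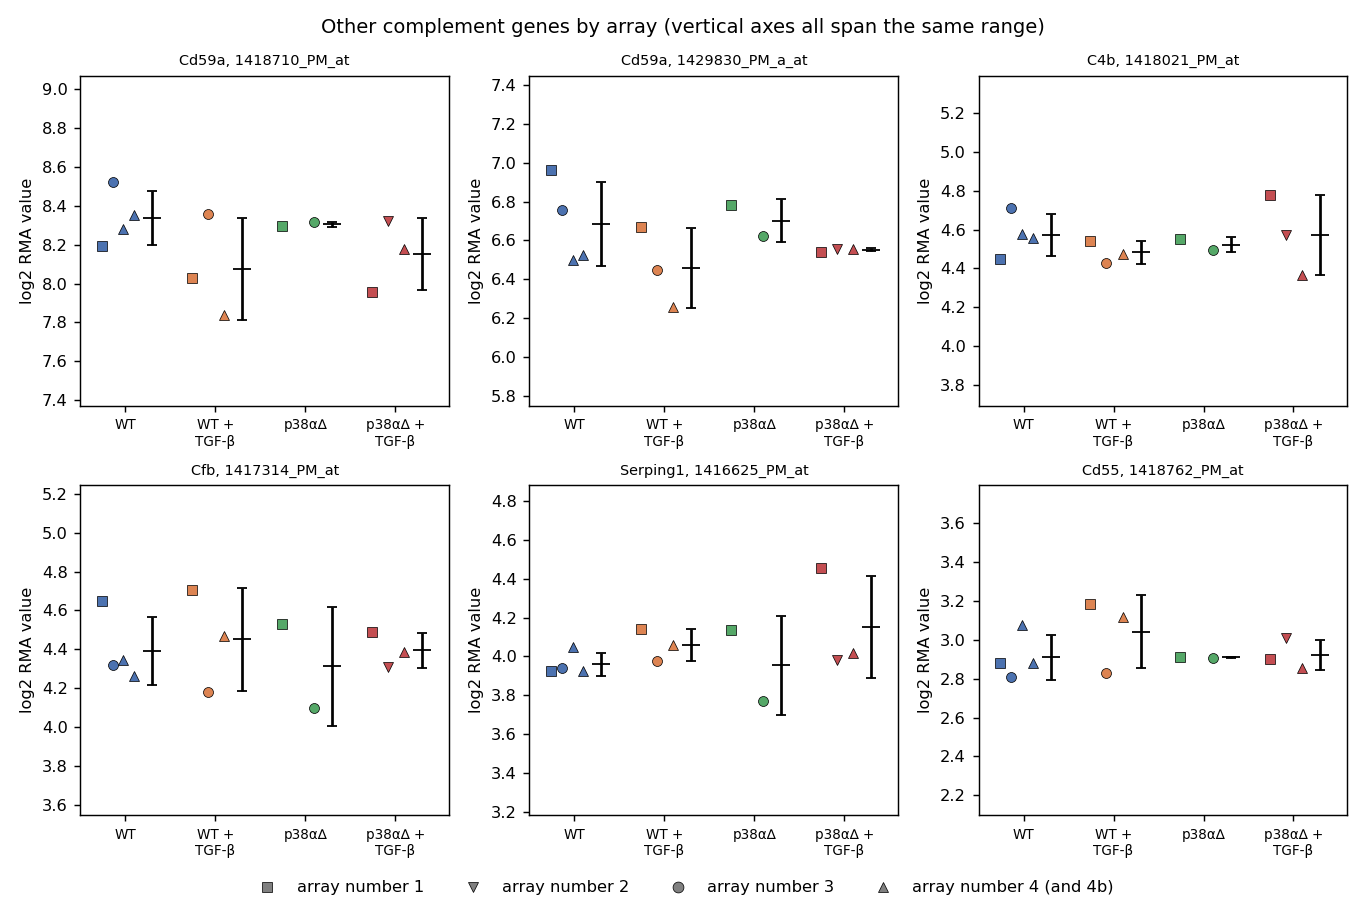
Log2 values of C4b, Cfb, Serping1, both Cd59a probesets and 1 of the 3 Cd55 probesets, 1 point per array, colored by group and shaped by array number. The bars are the group mean ± SD (n = 4, 3, 2 and 3), and the vertical axes start above 0 and all cover the same span. None of these probesets passed in any comparison, and for Cfb array 1 is the highest of each group.

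Over the 13 probesets, 3 were lower and 0 higher after TGF-β in WT MSCs. The median log2 fold change of the 13 was −0.08, beside 0.00 over all probesets, and 10 of the 13 were below 0, all 5 of Masp1 among them. The 3 called probesets were also the ones with all treated arrays below all untreated arrays, which held for 6.06% of all probesets, and 0 had all treated arrays above, which held for 4.94%. In p38α∆ MSCs 1 of the 13 was lower and 0 were higher. With 2 arrays against 3, 2 of the 13 probesets were all lower (10.7% of all probesets) and 2 all higher (9.35%). Of the 13 log2 fold changes, 7 were below 0 for the p38α∆ response. For the untreated and treated genotypes 9 and 3 were, and for the difference of responses 1 was. In that order the medians of the 13 were −0.001, −0.07, 0.09 and 0.12, beside −0.005, 0.004, −0.007 and −0.011 over all probesets. The share of all probesets below 0 was not counted. Probesets of 1 gene, and comparisons that share arrays, are not independent, so these counts are descriptions.

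Between genotypes 0 of the 13 probesets passed in limma. Untreated, 0 of all 45037 probesets passed (0.00%), 2049 of them had an unadjusted p under 0.05, and so did 1 of the 13. Under TGF-β 0.187% of all probesets passed (0.164% higher and 0.0222% lower), and 3 of the 13, those of Masp1, had an unadjusted p under 0.05, as did 7.06% of all probesets. For the 8 probesets of genes other than Masp1 the log2 differences were −0.27 to 0.14 for the WT response, −0.11 to 0.22 for the p38α∆ response, −0.10 to 0.03 between untreated genotypes and −0.17 to 0.10 under TGF-β. Their 95% intervals together reached from −0.50 to 0.32, −0.40 to 0.50, −0.35 to 0.25 and −0.38 to 0.34, so changes of up to these sizes could have gone undetected.

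**Figure D3:**
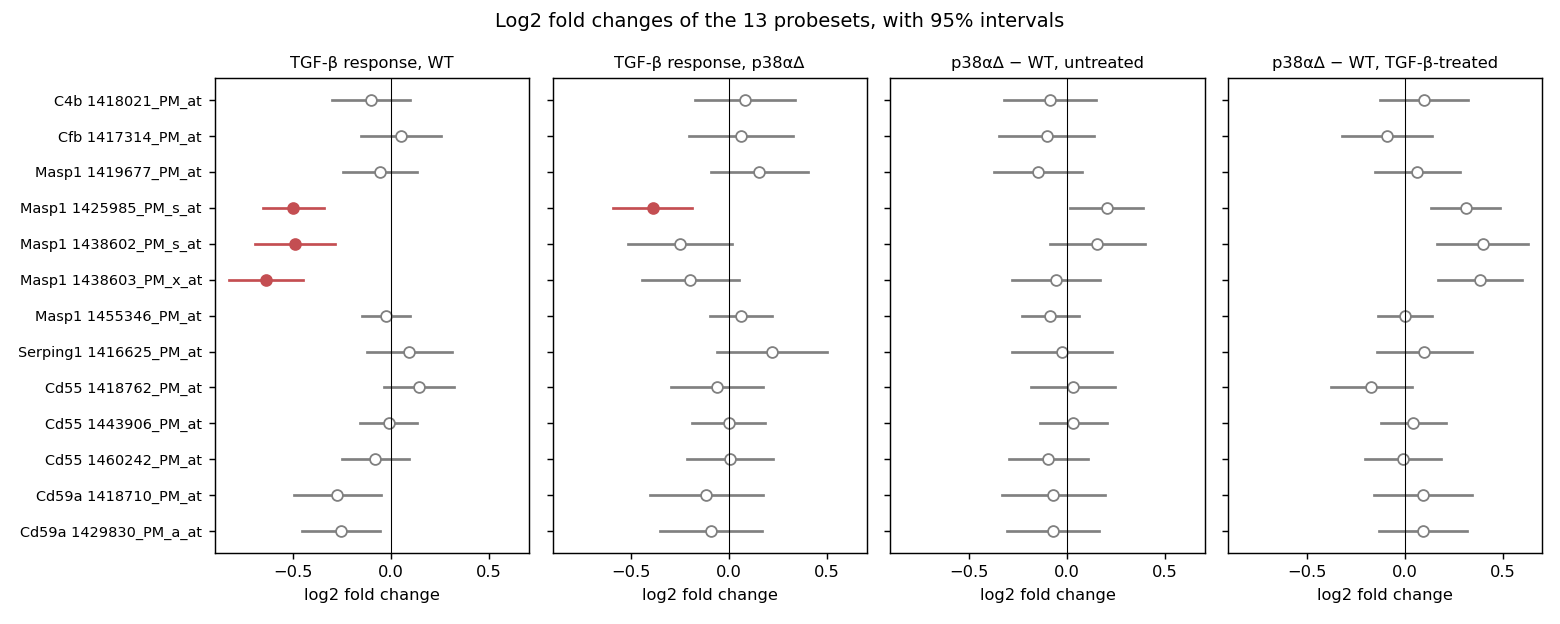
Log2 fold changes of the 13 probesets (points) with 95% intervals (bars) in the 4 comparisons, from the limma fit. Filled red points passed at an adjusted p under 0.05 and open points did not. Passing values are confined to Masp1 and to the TGF-β responses, with 3 probesets in WT and 1 in p38α∆ MSCs.

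Other genes of the system were looked at through a list of 49, of which 42 had 57 probesets. None of the 57 passed in any of the comparisons in limma, where 5, 5, 5, 8 and 2 had an unadjusted p under 0.05 for the WT response, the p38α∆ response, the genotypes untreated and treated, and the difference of responses. Over all probesets the shares with such a p were 17.0%, 16.5%, 4.55%, 7.06% and 4.94%. The median log2 fold change of the 57 was −0.00 for the WT response and 0.08 for the p38α∆ response. By role, the WT responses were −0.17 to 0.06 for the C1 subunits and proteases that start the classical route (6 genes), −0.13 to 0.16 for the recognition proteins and other proteases of the lectin route (7 genes), and −0.17 to 0.06 for terminal components (6 genes). They were −0.16 to 0.08 for soluble regulators (7 genes), −0.27 to 0.12 for membrane regulators (6 genes) and −0.23 to 0.43 for receptors (9 genes).

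C5ar1, the receptor for the inflammatory fragment C5a, came closest to passing and is named because its values were seen. Its probeset 1439902_PM_at read 3.55 and 3.20 in p38α∆ MSCs and 4.92, 3.62 and 3.90 after TGF-β, with array 1 highest in both groups. The log2 fold change was 0.90 (adjusted p = 0.0513 in limma), and 0.48 without TGF-β-treated p38α∆ array 1 (adjusted p = 0.169). The other C5ar1 probeset gave 0.84 (adjusted p = 0.0703). In WT MSCs the values were 0.33 (adjusted p = 0.406) and 0.43 (adjusted p = 0.251), and the differences of the responses did not pass (0.57 and 0.41, adjusted p = 0.945 each).

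Clu, a chaperone that also binds the terminal complex, is named for the same reason. Under TGF-β its 3 probesets lay above WT in p38α∆ MSCs by 0.38, 0.57 and 0.56 on the log2 scale, and none passed (adjusted p = 0.277, 0.188 and 0.413 in limma). The probeset with the lowest p, 1437458_PM_x_at, read 7.53, 7.87 and 7.84 on the treated WT arrays. On the treated p38α∆ arrays it read 7.95, 8.66 and 8.44, with no overlap, and 4.41% of all probesets were likewise all higher. Treated arrays did not overlap for 1418626_PM_a_at either, but they did for 1437689_PM_x_at (6.92, 7.39 and 7.39 in WT against 7.22, 8.25 and 8.03). Without TGF-β the differences of the 3 probesets were 0.16, 0.39 and 0.54 (adjusted p = 0.987 each in limma). A list of 20 acute phase proteins, 18 of them with 22 probesets, had 0 that passed in any comparison in limma (2, 0, 2, 2 and 0 with an unadjusted p under 0.05, in the order given above).

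Of the cell type markers, 4 of 18 MSC probesets were higher and 0 lower after TGF-β in WT MSCs, and 3 were higher and 1 lower in p38α∆ MSCs. Of all probesets 2.94% rose and 3.06% fell in WT MSCs, and 2.43% and 2.78% in p38α∆ MSCs. The 3 that rose in p38α∆ MSCs, and 3 of the 4 in WT MSCs, were probesets of 1 gene, Cd44, and the remaining ones were of Nt5e (0.49 in WT) and Pdgfra (−0.77 in p38α∆). Of 13 leukocyte probesets 1 was higher in WT MSCs, that of Fcer1g (log2 fold change 0.31, adjusted p = 0.0429 in limma, read at 4.23 to 4.76), and the mean of the list was 3.60 to 3.83 in untreated and 3.67 to 3.78 in treated WT arrays. No adipocyte, hepatocyte or endothelial marker passed in any comparison. The part of these genes in the fall of Masp1 was not tested.

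**Figure D4:**
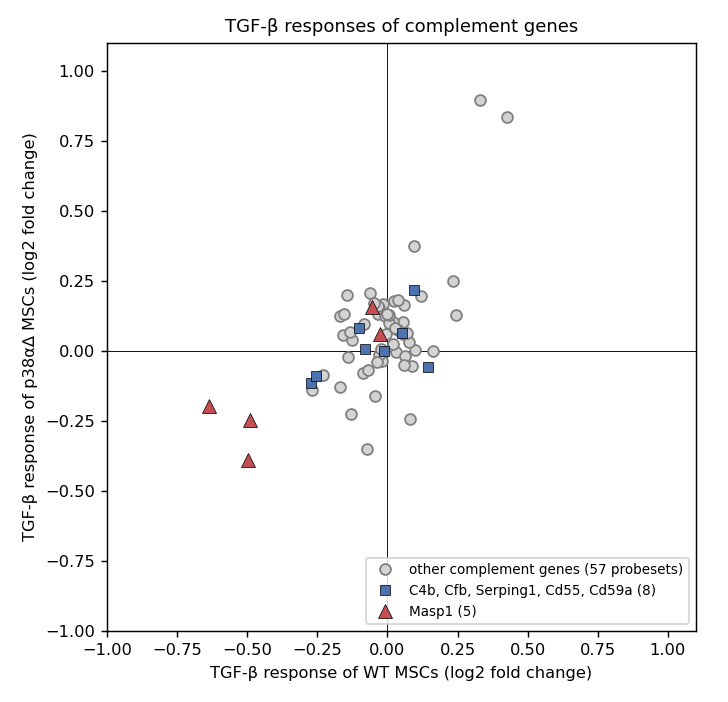
TGF-β response of WT MSCs (horizontal axis) against that of p38α∆ MSCs (vertical axis), both as log2 fold changes, 1 point per probeset: 57 of other complement genes (gray circles), 8 of C4b, Cfb, Serping1, Cd55 and Cd59a (blue squares) and 5 of Masp1 (red triangles). The 3 Masp1 probesets that fell lie at −0.64 to −0.49 on the horizontal and −0.39 to −0.20 on the vertical axis, and the 2 gray circles at the top right are C5ar1.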

How the data were processed

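RNA of the 12 arrays (Affymetrix MG-430 PM) had been amplified with a whole-transcriptome kit. The authors normalized the arrays by RMA and deposited log2 values, 1 per probeset, which were used without further scaling. No scanner files were used here, so background correction and summarization could not be varied. Probesets were named from the platform annotation (28898 with 1 symbol for 17097 genes, 551 with several, 15588 with none), and 64 control probesets were left out.

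Groups were compared in 1 fit of all 12 arrays and 45037 probesets with limma 3.58.1 (R 4.3.3, statmod 1.5.0): 4 group means, with the array number as a random block (duplicateCorrelation, 0.460), because the study's methods adjust for a scanning batch that the labels do not give. P-values are two-sided, adjusted over all probesets by Benjamini-Hochberg, and a probeset passed under 0.05. Array 4b was counted with number 4. The number comes from the titles, and what it stands for is not given. Deviations of same-numbered arrays from their group means correlated at 0.113 to 0.837 in 14 of 14 pairs, and at 0.113 to 0.387 in those of number 4. The 39 pairs of different numbers gave −0.822 to 0.736, with 12 above 0.1. Deviations within a group sum to 0, and those of the 2 untreated p38α∆ arrays are equal and opposite. The pairs are thus not independent of each other, and these correlations are descriptions. Arrays 4 and 4b of WT MSCs were the closest of the 13 pairs within groups (SD of their differences 0.158, against 0.165 to 0.459) but held different values and counted as 2.

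All probesets of the 8 genes were named, and for Masp1 the 3 most correlated genes. Other complement genes were to be named where they passed, and none did. C5ar1, Clu, C2 and the named markers were chosen after their values were seen. The members and lists were chosen with earlier results of these data known. The fit was tested on simulated data. Alternatives were the fit without the block or with it as a fixed term, 1 probeset per gene, a minimum mean of 4, median centring, quantile normalization, an intensity-trend prior, only the groups compared, no arrays numbered 1, arrays 4 and 4b averaged, and each array left out.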

Additional observations from a re-analysis of the deposited data

Results flagged for a closer look

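One value among the 13 probesets stood apart from its group: Serping1 probeset 1416625_PM_at read 4.05 in WT array 4, where the other 3 WT arrays read 3.92 to 3.94. The group of 4 WT arrays was the only one large enough for this check, which chance alone meets in about 1 of 20 groups. No comparison of Serping1 passed.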

How the results depend on the processing

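Of 1344 recomputed values of single probesets over 22 alternatives, 1260 kept their direction and their side of the threshold, 13 kept their direction and no longer passed, and 71 changed sign without passing (19 of them under other settings and 52 with 1 array left out). The fall of Masp1 1425985_PM_s_at in WT MSCs passed in 22 of 22 (−0.54 to −0.43) and that of 1438603_PM_x_at in 21 of 21. For 1438602_PM_s_at it passed in 19 of 21, with adjusted p = 0.0505 without the replicate block. The count for the WT response was 1 with 1 probeset per gene, where Masp1 has a single probeset, and 2 to 3 with an array left out. The count for the p38α∆ response was 0 with no replicate block, with the replicate block as a fixed term, after quantile normalization, with the intensity-trend prior and without the arrays numbered 1, and 0 to 1 with an array left out; the cause was not tested. Masp1 1425985_PM_s_at passed there in 10 of 21 alternatives (−0.42 to −0.34, adjusted p 0.0242 to 0.225 in limma). The counts of members for both genotype comparisons and for the difference of responses were 0 throughout. Over all probesets the calls ranged from 994 to 3223 (2704 as reported) for the WT response and 1058 to 2746 (2347) for the p38α∆ response, both lowest with no replicate block, 0 to 5 (0) and 8 to 126 (84) between genotypes untreated and treated, and 0 to 4 (3) for the difference. For the p38α∆ response, 1 or both of the C5ar1 probesets passed in 8 of 21 alternatives. Both passed only with the replicate block as a fixed term. With only the groups compared, the p38α∆ response could not be fitted. Number and group overlap incompletely, and without the arrays numbered 1 the correlation within numbers was 0.115.

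The 71 sign changes lay in 31 of the 65 differences between groups, at most 0.16 in size as reported and 0.099 when changed, and 0 of them passed in either setting. Without the replicate block the changed values were −0.0018 for Cd55 1418762_PM_at (the untreated genotypes), 0.012 for Cd55 1418762_PM_at (the p38α∆ response) and 0.017 for Cd55 1460242_PM_at (the treated genotypes). The last there was 0.016 for Cd59a 1429830_PM_a_at (the untreated genotypes). With the replicate block as a fixed term the changed values were 0.020 for Cd55 1443906_PM_at (the p38α∆ response) and −0.0027 for Masp1 1455346_PM_at (the treated genotypes). After median centring the changed value was 0.0034 for Cd55 1443906_PM_at (the p38α∆ response). After quantile normalization the changed values were 0.0055 for Cd55 1443906_PM_at (the p38α∆ response) and 0.0053 for Cd55 1460242_PM_at (the treated genotypes). Without the arrays numbered 1 the changed values were −0.016 for C4b 1418021_PM_at (the p38α∆ response), −0.046 for Cd55 1443906_PM_at (the difference of responses) and −0.0058 for Cd55 1443906_PM_at (the treated genotypes). The others there were 0.020 for Cfb 1417314_PM_at (the treated genotypes), 0.027 for Masp1 1419677_PM_at (the WT response) and −0.074 for Masp1 1438602_PM_s_at (the untreated genotypes). The last there was −0.020 for Serping1 1416625_PM_at (the treated genotypes). With only the groups compared the changed values were 0.0078 for Cd55 1460242_PM_at (the treated genotypes), −0.0084 for Masp1 1455346_PM_at (the treated genotypes) and 0.014 for Serping1 1416625_PM_at (the untreated genotypes). With an array left out, the WT response spanned −0.052 to 0.036 for Cd55 1443906_PM_at, −0.0031 to 0.14 for Cfb 1417314_PM_at, −0.10 to 0.045 for Masp1 1419677_PM_at and −0.067 to 0.0021 for Masp1 1455346_PM_at. Such ranges for the p38α∆ response were −0.075 to 0.21 for C4b 1418021_PM_at, −0.089 to 0.038 for Cd55 1443906_PM_at, −0.071 to 0.10 for Cd55 1460242_PM_at and −0.22 to 0.014 for Cd59a 1418710_PM_at. Further ranges there were −0.18 to 0.029 for Cd59a 1429830_PM_a_at and −0.016 to 0.16 for Cfb 1417314_PM_at. Such ranges for the untreated genotypes were −0.031 to 0.10 for Cd55 1418762_PM_at, −0.012 to 0.078 for Cd55 1443906_PM_at, −0.18 to 0.043 for Cd59a 1418710_PM_at and −0.023 to 0.32 for Masp1 1438602_PM_s_at. Further ranges there were −0.11 to 0.042 for Masp1 1438603_PM_x_at and −0.15 to 0.10 for Serping1 1416625_PM_at. Such ranges for the treated genotypes were −0.043 to 0.24 for C4b 1418021_PM_at, −0.034 to 0.085 for Cd55 1443906_PM_at, −0.032 to 0.0064 for Cd55 1460242_PM_at and −0.041 to 0.20 for Cd59a 1418710_PM_at. Further ranges there were −0.021 to 0.20 for Cd59a 1429830_PM_a_at, −0.029 to 0.17 for Masp1 1419677_PM_at, −0.022 to 0.049 for Masp1 1455346_PM_at and −0.064 to 0.21 for Serping1 1416625_PM_at. Such ranges for the difference of responses were −0.082 to 0.064 for Cd55 1443906_PM_at, −0.013 to 0.30 for Cd59a 1418710_PM_at, −0.065 to 0.11 for Cfb 1417314_PM_at and −0.069 to 0.26 for Serping1 1416625_PM_at.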
